A study of Mus musculus with 29 samples.

Results

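The genes described here were 9 genes of early inner ear development: Eya1, Eya2, Eya3, Eya4, Six2, Six4, Pax2, Pax8 and Gata3. They were chosen by family, and binding was assigned to them by position alone: a binding site belonged to a gene when its summit, the base of highest enrichment, lay in the gene body or within 50 kb of it in the mouse build mm9. By this rule 147 of 175162 kept summits in 9 lists fell near the 9 of 22743 genes with a coding sequence. The summits joined into 62 sites, a site being a run of 300 bp windows around summits that shared at least 1 bp.

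The lists came from ChIP-seq (sequencing of the DNA that an antibody pulls down with a bound protein) in mouse embryonic stem cell lines, all made from the A2loxCre parent and all carrying a doxycycline-inducible cassette that also encodes the fluorescent reporter Venus. iAtoh1 carried Atoh1, iPou4f3 carried Pou4f3, iG+A carried Gfi1 and Atoh1, iG+P carried Gfi1 and Pou4f3, iP+A carried Pou4f3 and Atoh1, and iGPA carried Gfi1, Pou4f3 and Atoh1. Every line was grown as embryoid bodies, aggregates of differentiating stem cells, and was collected on day 6 after 48 h in doxycycline at 2 µg/ml from day 4. Atoh1, through its FLAG tag, and Pou4f3, through a MYC tag, were each precipitated in the 4 lines that carried them, and Gfi1 in iGPA alone, by an antibody to Gfi1. Each list merged 2 libraries from different clones, except the Gfi1 list with 1 library, and 12 input libraries served as background. These are factors forced into embryoid bodies, not otic tissue, and expression of the genes was not analysed here.

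Eya proteins are transcriptional co-activators that also act as phosphatases, and they do not bind DNA themselves. Six2 and Six4 are homeodomain proteins of the family that binds DNA and recruits Eya proteins, Pax2 and Pax8 are paired-domain factors of the early otic placode, and Gata3 is a zinc-finger factor needed for otic development and hair cells. Loss of EYA1 in people causes branchio-oto-renal syndrome, and EYA4 and GATA3 mutations cause forms of inherited deafness. Atoh1 is a basic helix-loop-helix factor that recognises E-boxes, and Pou4f3 is a POU-homeodomain factor that recognises AT-rich DNA. Gfi1 is a zinc-finger repressor, for which the study also proposes a role as co-activator of Atoh1. All 3 factors are regulators of hair cell development.

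The DNA at 7 sites is shown because they are among the sites that carry the results below. They came from the sites present in 5 or more lists or of the highest Atoh1 or Pou4f3 fold for their gene, taken by number of lists and then by fold, with at most 2 for a gene and none whose 200 bp window reached an untranslated region. Each run is the + strand of mm9 around the summit of highest fold. Capitals mark the E-box cores CAGCTG and CAGATG (or its complement CATCTG), and matches to the Pou4f pattern ATAATTAAT on either strand with at most 1 mismatch. No run held the Gfi1 patterns AATCACAGC or AATCACTGC.
Eya1 site 2, chr1:14338658-14338857: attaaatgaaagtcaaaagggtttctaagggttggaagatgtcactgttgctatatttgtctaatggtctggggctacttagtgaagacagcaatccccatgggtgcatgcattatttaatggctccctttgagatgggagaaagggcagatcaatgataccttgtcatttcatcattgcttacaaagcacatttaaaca
Eya4 site 1, chr10:22990980-22991179: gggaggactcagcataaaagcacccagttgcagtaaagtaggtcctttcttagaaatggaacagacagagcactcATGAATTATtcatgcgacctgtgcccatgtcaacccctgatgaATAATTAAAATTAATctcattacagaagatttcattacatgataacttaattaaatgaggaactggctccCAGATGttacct
Eya2 site 2, chr2:165455467-165455666: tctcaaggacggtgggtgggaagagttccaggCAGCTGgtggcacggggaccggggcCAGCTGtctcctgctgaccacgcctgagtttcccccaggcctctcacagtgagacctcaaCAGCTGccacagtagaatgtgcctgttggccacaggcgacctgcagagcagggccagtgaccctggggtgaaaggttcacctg
Eya2 site 5, chr2:165547965-165548164: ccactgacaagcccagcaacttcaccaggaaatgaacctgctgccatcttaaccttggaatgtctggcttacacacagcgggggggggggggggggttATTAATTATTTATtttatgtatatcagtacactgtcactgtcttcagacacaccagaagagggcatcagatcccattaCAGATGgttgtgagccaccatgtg
Six4 site 1, chr12:74261449-74261648: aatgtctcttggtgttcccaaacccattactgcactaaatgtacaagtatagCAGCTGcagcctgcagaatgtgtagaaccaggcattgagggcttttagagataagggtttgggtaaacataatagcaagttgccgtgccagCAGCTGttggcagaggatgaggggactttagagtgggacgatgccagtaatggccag
Six2 site 7, chr17:86045141-86045340: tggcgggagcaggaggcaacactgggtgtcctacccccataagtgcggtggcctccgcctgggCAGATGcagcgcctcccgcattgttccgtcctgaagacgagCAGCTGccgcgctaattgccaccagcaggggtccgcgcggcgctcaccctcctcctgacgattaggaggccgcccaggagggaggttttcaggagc
Gata3 site 3, chr2:9801996-9802195: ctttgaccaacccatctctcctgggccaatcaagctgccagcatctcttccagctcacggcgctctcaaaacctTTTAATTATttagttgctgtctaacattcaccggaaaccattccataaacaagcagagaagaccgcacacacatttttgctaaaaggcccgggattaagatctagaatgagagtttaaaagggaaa

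The balance of the factors differed from gene to gene. Eya2 had mostly Atoh1, with 19 summits over the Atoh1 lists and 3 over the Pou4f3 lists. Eya1 had mostly Pou4f3, with 4 and 19. Eya4 had 7 and 12, Pax2 6 and 13, Six2 6 and 9, and Six4 13 and 20. Eya3 with 5 Pou4f3 summits, Gata3 with 6 and Pax8 with 2 had no kept Atoh1 summit in any line. These are sums over 4 lists, so a site kept in several lists was counted in each of them. The longest list, iG+P, gave 8 of the 19 Pou4f3 summits at Eya1, 9 of 20 at Six4 and 4 of 5 at Eya3. The size of the lean was not compared with that of all genes.

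**Figure D1:**
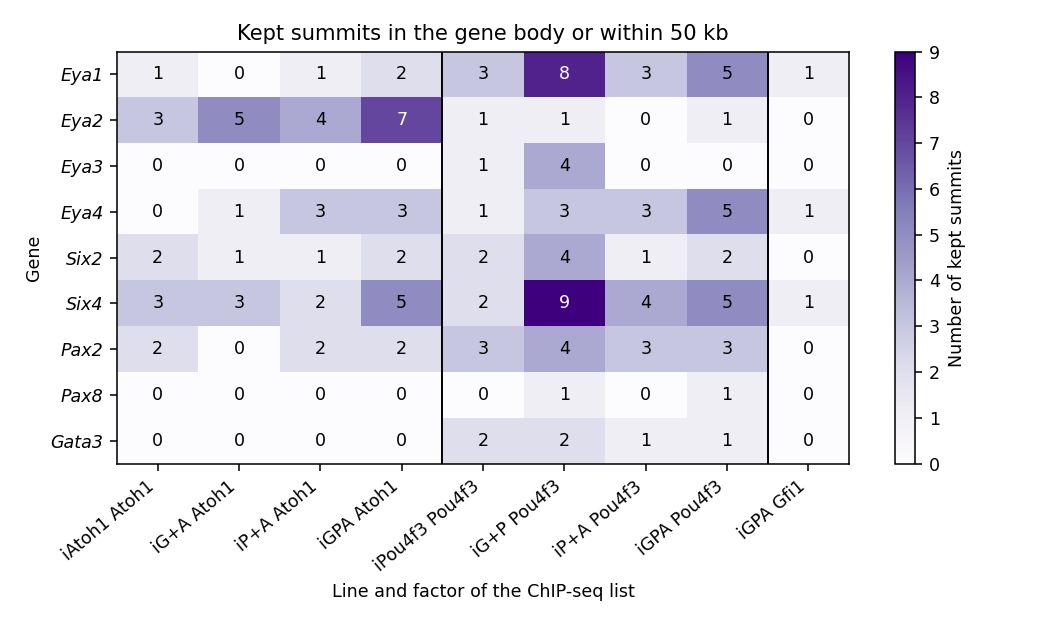
Number of kept summits in the body or within 50 kb of each gene (rows) in each list (columns, line and then factor), with vertical lines between the Atoh1, Pou4f3 and Gfi1 lists. Eya2 carries most of its summits in the Atoh1 columns and Eya1 in the Pou4f3 columns, and the rows of Eya3, Pax8 and Gata3 are 0 in every Atoh1 column.

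Numbers of genes were read against all genes with a coding sequence, since most such genes had a summit in a region this wide. With Atoh1, 5 of the 9 genes had a summit in iAtoh1, where 52.9% of all genes did, 6 in iP+A (62.2%), 4 in iG+A (65.2% of all genes) and 6 in iGPA (71.6%). With Pou4f3, 8 of the 9 had one in iPou4f3 (72.2% of all genes), 6 in iP+A (58.4%), 9 in iG+P (76.4%) and 8 in iGPA (62.7%). For Gfi1 in iGPA the number was 3 (23.1%). The widest gaps were 8 of 9 genes (88.9%, 95% exact binomial interval 51.8 to 99.7) against 62.7% for Pou4f3 in iGPA, 9 of 9 (66.4 to 100) against 76.4% in iG+P, and 4 of 9 (44.4%, 13.7 to 78.8) against 65.2% for Atoh1 in iG+A. With 9 genes, the interval held the background in every list.

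**Figure D2:**
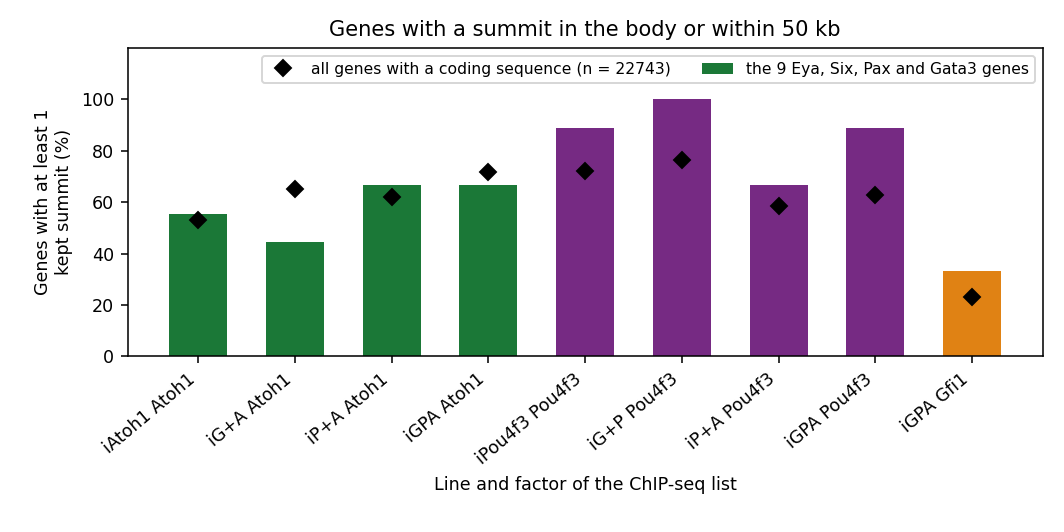
Percentage of genes with at least 1 kept summit in the body or within 50 kb, by list: bars for the 9 genes (green Atoh1, purple Pou4f3, orange Gfi1) and black diamonds for all 22743 genes with a coding sequence. The bars run from 3 of 9 genes for Gfi1 to 9 of 9 for Pou4f3 in iG+P, and the diamonds from 23.1% to 76.4%.

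Some genes had a summit of a factor in every line where that factor was precipitated. Eya2, Six2 and Six4, 3 of the 9, had an Atoh1 summit in each of the 4 Atoh1 lists, as had 42.3% of all genes. Eya1, Eya4, Six2, Six4, Pax2 and Gata3, 6 of the 9, had a Pou4f3 summit in each of the 4 Pou4f3 lists, as had 46.9% of all genes. Eya3, Pax8 and Gata3 had Pou4f3 in at least 1 list and Atoh1 in none, a pattern found in 9.30% of all genes. For Gata3 it depended on the authors' filter, because 1 called Atoh1 peak in iG+A, at a fold enrichment of 2.94, was not among the kept summits. The pattern also depended on how sites were assigned. Genes with a kept Atoh1 summit in iGPA were 6 here, 8 with 100 kb flanks and 7 by nearest start.

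The 9 genes had a median region of 182 kb against 115 kb for all genes, so densities were compared per 100 kb. Six2 and Six4, with regions of 104 and 113 kb, lay below the median of all genes. For Atoh1 the median gene held 0.415 summits per 100 kb in iAtoh1 (0.473 over all genes), 0.868 in iP+A (0.813), 0 in iG+A (0.890) and 0.868 in iGPA (1.03). For Pou4f3 the medians were 1.24 in iPou4f3 (0.982), 0.868 in iP+A (0.712), 2.15 in iG+P (1.21) and 1.45 in iGPA (0.820). The median was thus above that of all genes in the 4 Pou4f3 lists, and below it in each Atoh1 list but iP+A. Means taken over total length differed in direction in iP+A for Atoh1 (0.775 against 1.26), in iPou4f3 (0.895 against 1.39) and in iP+A for Pou4f3 (0.895 against 0.959).

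As a share of its list, Pou4f3 in iGPA had the largest part near these genes, 23 summits or 0.123% (95% exact binomial interval 0.0778 to 0.184), and Atoh1 in iG+A the smallest, 10 summits or 0.0488% (0.0234 to 0.0897). These intervals overlap. The remaining counts were 11, 13 and 21 for Atoh1 in iAtoh1, iP+A and iGPA, 36, 15 and 15 for Pou4f3 in iG+P, iP+A and iPou4f3, and 3 for Gfi1. The 36 summits of iG+P were the most of any list, and with every Atoh1 and Pou4f3 list held to its 15568 strongest summits they fell to 11. No list had a spread between replicates, so no difference between lines was tested. Intervals cover counting error only.

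Eya1 (ENSMUSG00000025932.7, chr1:14159035-14300281, minus strand) had 11 sites, and its strongest lay outside the gene. Eya1 site 2, printed above, is 38477 bp upstream of the nearest Eya1 start and was present in all 4 Pou4f3 lists and in no Atoh1 list. Fold enrichment, the ratio of fragments at the summit to local background, was 22.7 in iGPA (19.5 to 26.3, 181 fragments), 17.8 in iG+P (15.2 to 20.8), 15.3 in iPou4f3 (12.8 to 18.2) and 10.3 in iP+A (8.31 to 12.6), with 95% Poisson intervals. The value in iP+A lay below the other intervals. By rank in its own list the order was another one: 55 of 32632 in iG+P, 118 of 17082 in iP+A, 141 of 18751 in iGPA and 209 of 22433 in iPou4f3. The 250 bp around this summit held no E-box and no match to the Pou4f pattern.

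Pou4f3 also marked further upstream sites of Eya1. Eya1 site 1, 49970 bp upstream and just inside the limit of the region, was in all 4 Pou4f3 lists at folds of 7.57 in iGPA, 3.62 in iP+A, 2.96 in iG+P and 2.85 in iPou4f3. Eya1 site 3, 29176 bp upstream, was in 3 of them at up to 5.39. These sites 1 and 3 were named after their values were seen.

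Near the Eya1 start all 3 factors had weak summits, though not in 1 line. Eya1 site 5 (chr1:14299593-14300211) had its strongest summit, that of Gfi1, in an untranslated exon 138 bp past a start. Gfi1 in iGPA had a fold of 3.96 (2.40 to 6.21) and Pou4f3 in iGPA 3.20 (2.04 to 4.82). Atoh1 had 3.12 (2.11 to 4.46) in iP+A and 2.44 (1.52 to 3.75) in iAtoh1. The Atoh1 windows shared no base with the Gfi1 window and were joined to it through the Pou4f3 summit between them. The Atoh1 value in iAtoh1 ranked 15257 of 15568 in its list, so it was among the weakest kept. The highest Atoh1 fold near Eya1 was 3.32 in iGPA, at Eya1 site 6 in an intron (chr1:14294694-14294993).

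Eya2 (ENSMUSG00000017897.11, chr2:165480798-165597227, plus strand) showed the reverse picture. Of its 8 sites 7 had Atoh1 alone. Eya2 site 2, 25231 bp upstream of the gene, was in all 4 Atoh1 lists and in no Pou4f3 list. Its fold was 15.9 in iGPA (13.3 to 18.9), 12.3 in iG+A (9.91 to 15.0), 6.47 in iAtoh1 (4.87 to 8.45) and 5.81 in iP+A (4.38 to 7.56). The iGPA and iG+A values, from the lines with Gfi1, lay above the intervals of the lines without it. The printed sequence holds CAGCTG 3 times, the nearest starting 17 bp past the summit.

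Another Eya2 site ordered the lines in another way. Eya2 site 4, 1558 bp upstream (chr2:165479090-165479407, named after its values were seen), was also in all 4 Atoh1 lists and no other. Its fold was 10.6 in iP+A (lower limit 8.67), 8.37 in iGPA (6.51 to 10.6), 5.13 in iAtoh1 (3.72 to 6.92) and 4.41 in iG+A (3.06 to 6.16). Here the lines with Pou4f3 were the higher ones by fold, though the intervals of iGPA and iAtoh1 overlapped. By rank the site was 179 of 18949 in iP+A, 1595 of 26231 in iGPA, 1218 of 15568 in iAtoh1 and 3387 of 20504 in iG+A. Only in iP+A was it in the highest 5% of its list by fold. Eya2 site 7, downstream of the gene, completed the Eya2 sites in all 4 Atoh1 lists, at 2.81 to 6.98.

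Pou4f3 had a single site at Eya2. Eya2 site 5, in an intron, had Pou4f3 folds of 6.84 in iGPA (5.05 to 9.08), 5.58 in iG+P (4.17 to 7.32) and 5.11 in iPou4f3 (3.72 to 6.87), which overlapped. The printed sequence carries a full match, ATTAATTAT, starting 2 bp before the summit. It had no kept summit in iP+A.

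**Figure D3:**
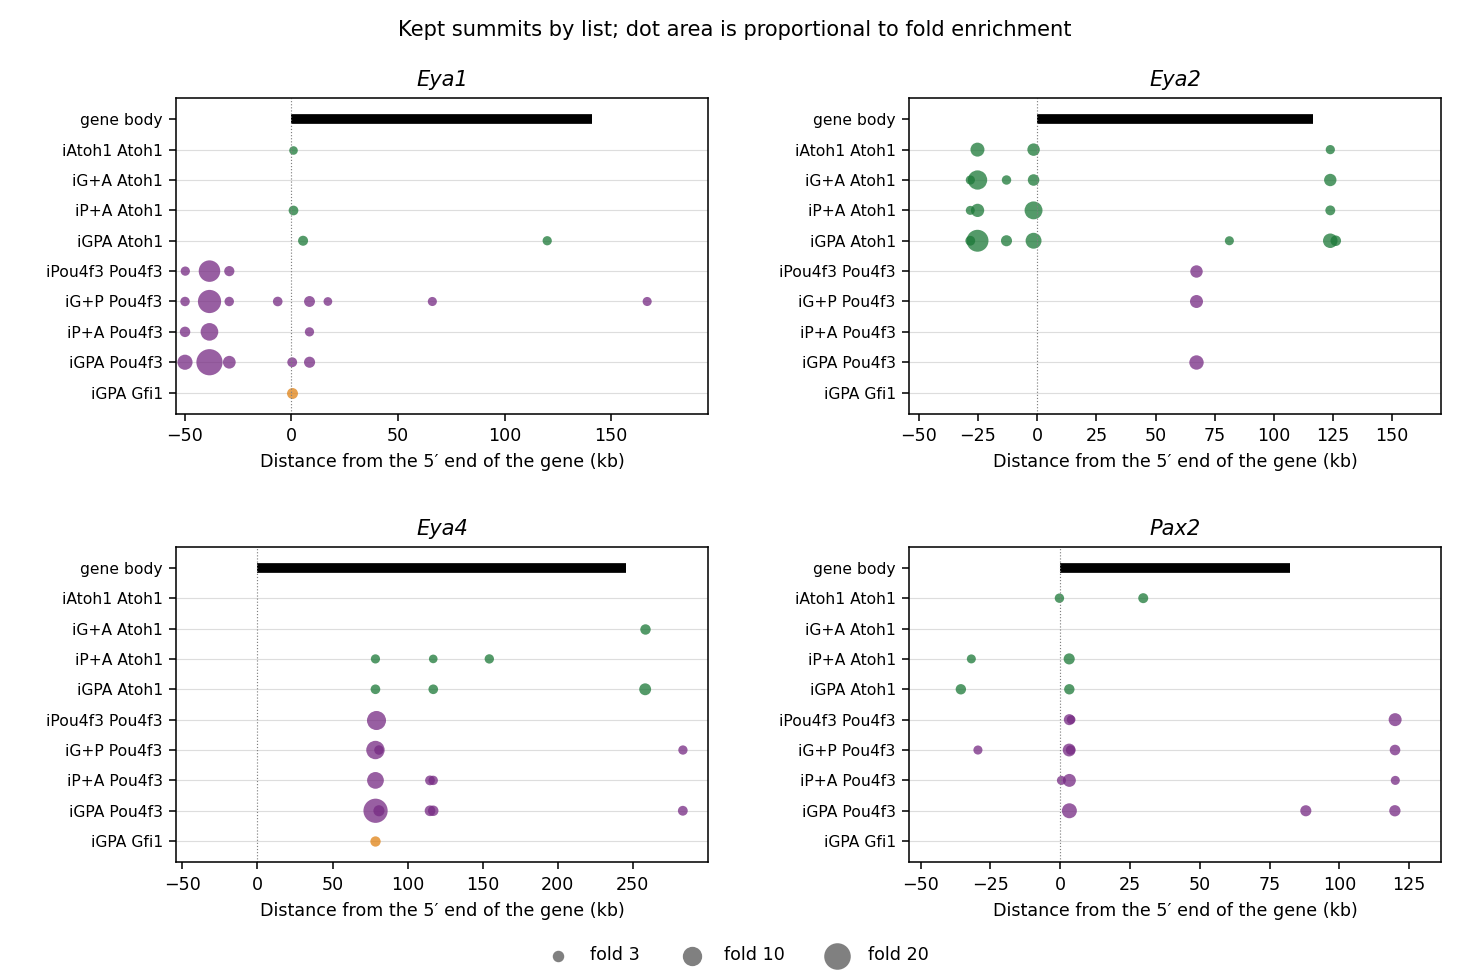
Kept summits at Eya1, Eya2, Eya4 and Pax2 by distance from the 5′ end of the gene in kb (horizontal) and by list (vertical), with the gene body as a black bar and dot area proportional to fold enrichment (green Atoh1, purple Pou4f3, orange Gfi1). The large purple dots of Eya1 lie upstream of the gene, those of Eya4 inside it at 1 place with small Atoh1 and Gfi1 dots, and the large green dots of Eya2 lie upstream.

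Eya4 (ENSMUSG00000010461.7, chr10:22823974-23069701, minus strand) held the only site near these genes where all 3 factors had a kept summit in iGPA. This was Eya4 site 1, in an intron 78621 bp past the nearest Eya4 start, which was present in 7 of 9 lists. Pou4f3 fold was 19.4 in iGPA (16.2 to 22.9), 12.0 in iPou4f3 (9.79 to 14.6), 9.28 in iP+A (7.40 to 11.5) and 11.2 in iG+P (9.11 to 13.5), so that iGPA lay above the other intervals, which overlapped each other. By rank it did not stand first: the site was 187 of 17082 in iP+A, 231 of 18751 in iGPA, 315 of 32632 in iG+P and 422 of 22433 in iPou4f3. Gfi1 fold was 3.52 (2.07 to 5.66, 15 fragments), at rank 2501 of 3012 in its list. Atoh1 was kept there in the lines that also carried Pou4f3, at 3.08 in iGPA (2.02 to 4.52) and 2.80 in iP+A (1.85 to 4.08), and not in iAtoh1 or iG+A. Its ranks were 17424 of 26231 in iGPA and 13003 of 18949 in iP+A. These Gfi1 and Atoh1 summits were thus weak, and none reached a −log10 p of 10. In iGPA the Atoh1 and Pou4f3 summits were 73 bp apart and in iP+A 19 bp. The printed sequence has 3 Pou4f matches, of which 2 overlap, and CAGATG starting 88 bp past the summit.

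The other 6 sites of Eya4 were weaker, none with a fold above 4.68. That value was Atoh1 in iGPA at Eya4 site 6 downstream of the gene (chr10:22811386-22811742), where iG+A had 3.60. Eya4 site 4, in an intron, again had Atoh1 and Pou4f3 together in iP+A and in iGPA and in no other line, at folds of 2.47 to 3.64, and it is named after its values were seen.

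Eya3 (ENSMUSG00000028886.8, chr4:132194902-132280680, plus strand) was poor in sites. It had 4, of which 3 were seen only in iG+P, at folds of 2.30 to 2.85. Among these, Eya3 sites 3 and 4, named after their values were seen, lay downstream of the gene. They were 394 and 63 bp from a start of another gene, Rpa2. Eya3 site 2 in an intron (chr4:132208294-132208607) had Pou4f3 at 3.57 in iPou4f3 (2.43 to 5.07) and 2.96 in iG+P (1.97 to 4.28). Neither line with both Atoh1 and Pou4f3 kept a summit at this gene.

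Among the DNA-binding partners of Eya, Six4 (ENSMUSG00000034460.6, chr12:74201246-74214401, minus strand) had the most summits, 34, at 11 sites. Six4 site 5 (chr12:74224509-74224892) was in 8 of 9 lists, all but Gfi1. Atoh1 fold was 4.92 in iGPA, 3.90 in iP+A, 3.74 in iG+A and 3.30 in iAtoh1, and Pou4f3 fold 3.33 in iPou4f3, 3.20 in iGPA, 3.06 in iG+P and 3.06 in iP+A. All these intervals overlapped, from 2.04 to 6.68. The summit is 10323 bp upstream of Six4 but 20 bp from a start of Mnat1, a gene of the CDK-activating kinase, so the site is also a promoter site of that gene.

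Six4 site 1, 47148 bp upstream, was in 5 lists, with Atoh1 at 3.47 in iG+A, 3.32 in iGPA and 3.30 in iAtoh1, and Pou4f3 at 3.20 in iGPA and 2.52 in iG+P. In iGPA these summits were 303 bp apart, against at most 73 bp at the other 4 shared sites of that line, and the windows were joined through summits of other lists between them. Gfi1 was kept at Six4 site 8 in an intron (chr12:74211397-74211714), at 4.40 (2.74 to 6.74), with Pou4f3 in iG+P at 2.52. The highest Pou4f3 fold was 4.51 in iGPA, at Six4 site 10 downstream (chr12:74157942-74158293), nearer to the start of another gene.

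Six2 (ENSMUSG00000024134.9, chr17:86083608-86087594, minus strand) is the shortest of the genes and had 7 sites, each with 1 factor only. Its highest Atoh1 fold was at Six2 site 7, 42353 bp from its start on the downstream side: 5.66 in iGPA (4.16 to 7.53), 3.30 in iAtoh1 (2.20 to 4.78) and 3.20 in iG+A (2.08 to 4.74). The nearest start there is that of Six3, at 24870 bp. The printed sequence has CAGCTG starting 4 bp past the summit. The highest Pou4f3 fold was 3.39 in iG+P, at Six2 site 1 (chr17:86136075-86136422) 48631 bp upstream, with 2.85 in iPou4f3 and 2.83 in iP+A.

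Pax2 (ENSMUSG00000004231.7, chr19:44830539-44912758, plus strand) had 10 sites, the strongest in an intron near its 5′ end. Pax2 site 6 was in 6 lists. Pou4f3 fold was 7.43 in iGPA (5.55 to 9.75), 5.55 in iP+A (4.12 to 7.32), 5.47 in iG+P (4.08 to 7.20) and 4.04 in iPou4f3 (2.82 to 5.63), and these intervals overlapped. Atoh1 was kept in iP+A at 4.09 (2.91 to 5.59) and iGPA at 3.57 (2.41 to 5.10), not in iAtoh1 or iG+A, as at Eya4 site 1.

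Pax8 (ENSMUSG00000026976.8, chr2:24276071-24331119, minus strand), a close relative of Pax2, had the fewest summits of the 9 genes. Its only site, in an intron (chr2:24325814-24326143), had Pou4f3 at 3.28 in iG+P (2.24 to 4.67) and 3.06 in iGPA (1.92 to 4.64).

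Gata3 (ENSMUSG00000015619.9, chr2:9778705-9811661, minus strand) had 3 sites, all with Pou4f3. Gata3 site 3, in an intron 1869 bp upstream of an internal Gata3 start, was in all 4 Pou4f3 lists at 4.28 in iPou4f3 (3.02 to 5.90), 3.64 in iGPA (2.39 to 5.35), 2.94 in iP+A (1.94 to 4.29) and 2.74 in iG+P (1.79 to 4.02). These intervals overlapped. Its printed sequence has 1 Pou4f match, TTTAATTAT, starting 26 bp before the summit. The nearest annotated start of any gene, 783 bp away, is that of 4930412O13Rik.

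**Figure D4:**
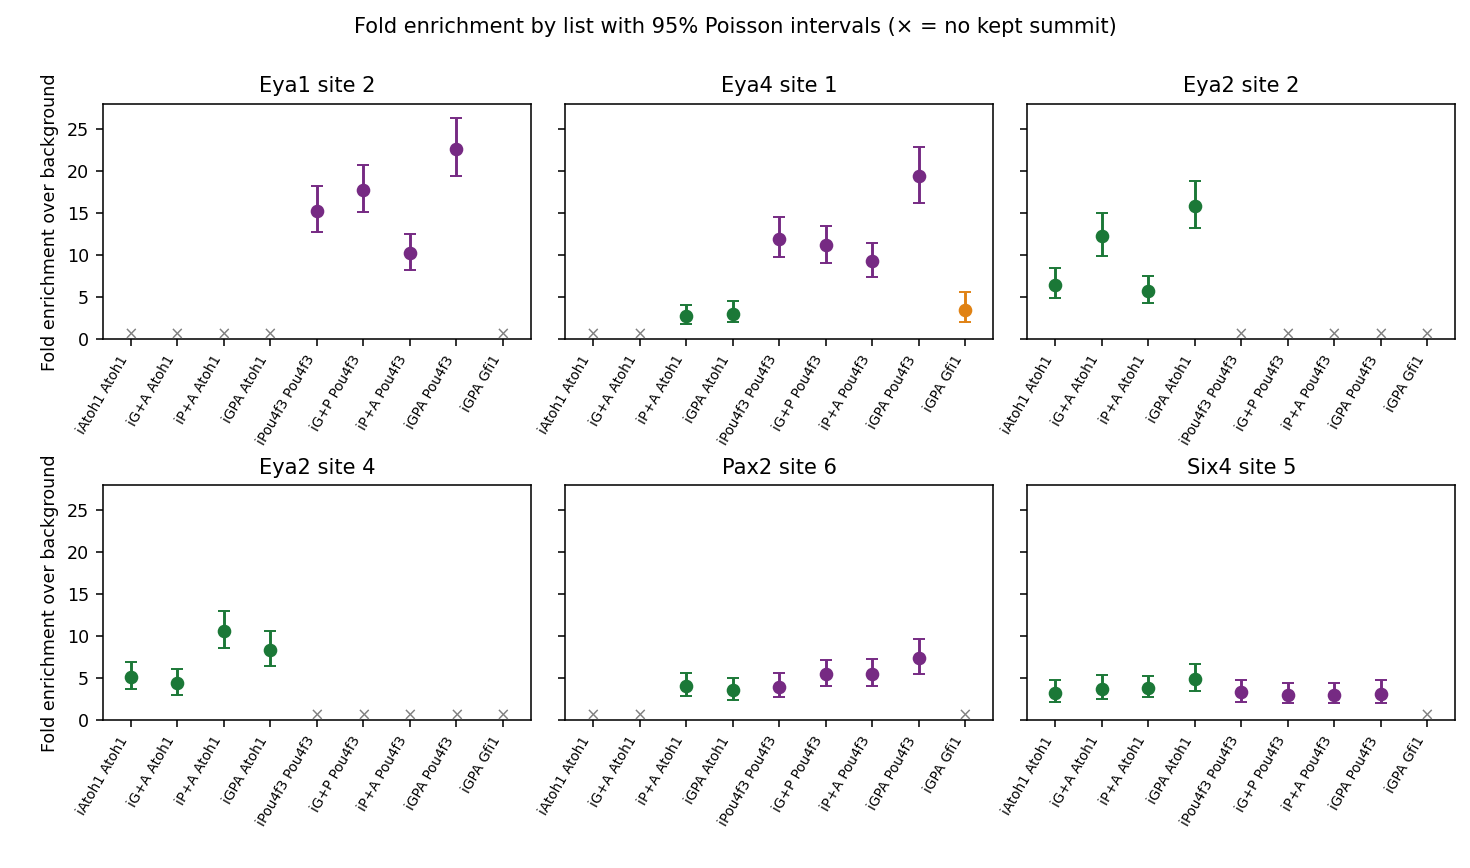
Fold enrichment over background (linear axis) by list at 6 sites, with points for the value, bars for 95% Poisson intervals of counting error, and a cross where no summit was kept (green Atoh1, purple Pou4f3, orange Gfi1). Pou4f3 reaches 22.7 at Eya1 site 2 and 19.4 at Eya4 site 1, Atoh1 reaches 15.9 at Eya2 site 2, and at Six4 site 5 all 8 values lie between 3.06 and 4.92.

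The strongest summits came from 3 genes of the Eya family. The highest 5% of a list by fold began at 5.89 to 11.5 in the Atoh1 and Pou4f3 lists. Near the 9 genes, 1 summit of each Atoh1 list reached that value, of 10 to 21, and 2 of each Pou4f3 list, of 15 to 36. These were Eya2 site 2, or Eya2 site 4 in iP+A, for Atoh1, and Eya1 site 2 and Eya4 site 1 for Pou4f3. Median folds near the genes were close to those of the lists, for example 3.32 against 3.45 for Atoh1 and 3.93 against 4.08 for Pou4f3 in iGPA. No Gfi1 summit here passed its 5% value of 11.3.

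Most sites had 1 factor. Of the 62 sites 26 had Atoh1, 41.9% (29.5 to 55.2) against 56.6% of all 78408 sites. Pou4f3 was at 43, 69.4% (56.3 to 80.4) against 60.5%. Both factors were at 7, 11.3% (4.66 to 21.9) against 18.2%. In iGPA, 5 sites carried both factors, 23.8% of its 21 Atoh1 sites and 21.7% of its 23 Pou4f3 sites, against 16.0% and 21.9% over all sites. The 5 were at Eya4, Six4 and Pax2, and their number fell to 1 at equal list length and to 0 with a −log10 p of at least 10. They include Six4 site 1, where the iGPA Atoh1 and Pou4f3 summits were 303 bp apart. Their windows shared no base and were joined only through summits of other lists. In iP+A 4 sites did, 30.8% of 13 and 28.6% of 14, against 24.2% and 26.6%. All 3 Gfi1 sites carried Pou4f3 in at least 1 line (29.2 to 100), against 48.2% of all 2991 Gfi1 sites. The interval of the share with Atoh1 lay below the value of all sites, and those of the other shares span it. No difference was tested.

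Between lines, 8 of the 11 Atoh1 sites of iAtoh1 (72.7%, 39.0 to 94.0) were also in iGPA, where they made up 38.1% of its sites, against 54.3% and 32.0% over all sites. For Pou4f3, 10 of the 15 sites of iPou4f3 (66.7%, 38.4 to 88.2) were also in iGPA, and 43.5% of the iGPA sites, against 49.8% and 59.2%. Of the 26 Atoh1 sites 4 were in all 4 lists, 15.4% (4.36 to 34.9) against 10.7%, and 3 of the 4 were at Eya2. Of the 43 Pou4f3 sites 8 were in all 4 lists, 18.6% (8.39 to 33.4) against 14.8%, a number that fell to 4 at equal list length, and 14 were in iG+P only, 32.6% (19.1 to 48.5) against 26.2%. Pou4f3 sites near these genes were in iG+P in 81.4% (66.6 to 91.6), against 67.0% of all Pou4f3 sites.

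Sites lay mostly away from promoters. Of the 62, 24 were upstream of the gene, 21 in introns, 13 downstream, 2 in coding exons and 2 in untranslated exons. A start of any gene was within 1 kb of 12 sites, 19.4% (10.4 to 31.4) against 21.2% of all sites. The nearest start belonged to the gene itself for 37 sites, so 25 sites are assigned by distance to a gene that another start lies closer to. Which gene a site acts on was not measured.

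Sequence patterns differed with the factor at the site. All 19 sites with Atoh1 and no Pou4f3 held an E-box, CANNTG, in 250 bp (82.4 to 100), as did 88.9% of such sites everywhere, and 16 of the 19 held an E-box core, 84.2% (60.4 to 96.6) against 70.3%. None of the 19 held the Pou4f pattern (0 to 17.6), against 4.90%. Of 36 sites with Pou4f3 and no Atoh1, 23 held the Pou4f pattern, 63.9% (46.2 to 79.2) against 46.9%, and 9 an E-box core, 25.0% (12.1 to 42.2) against 21.8%. The E-box itself was in 63.9% of these 36 and in 69.1% of such sites everywhere. Of 7 sites with both factors 6 held an E-box core, 85.7% (42.1 to 99.6) against 42.1%, and 2 the Pou4f pattern, 28.6% (3.67 to 71.0) against 16.4%. The Gfi1 patterns were found at none of the 62 sites, and at 0.592% to 0.643% of sites everywhere. All searches covered both strands, the cores are a subset of the E-box, and a match is a description.

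**Figure D5:**
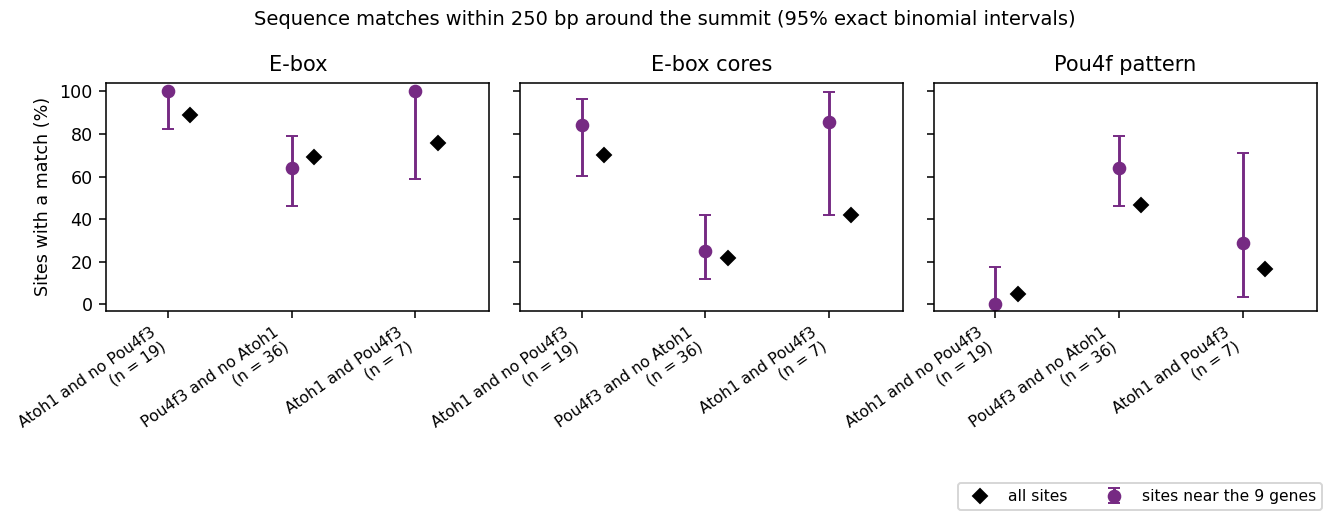
Percentage of sites with a match in the 250 bp around the summit, for sites with Atoh1 and no Pou4f3, Pou4f3 and no Atoh1, or both: purple points with 95% exact binomial intervals for the sites near the 9 genes, black diamonds for all sites of that kind. E-box cores are at 84.2% with Atoh1 and no Pou4f3 and 25.0% with Pou4f3 and no Atoh1, and the Pou4f pattern is at 0% and 63.9%.

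Other genes of the pre-placodal and otic network were counted by the same rule: Dach1, Dach2, Six3, Six5, Six6, Pax3, Pax6, Gata2, Dlx3, Dlx5, Foxi3, Hmx2, Hmx3, Tbx1, Lmx1a and Gbx2. Shares of the 16 are given here against those of all genes. Atoh1 had a summit near 9 in iAtoh1 (56.2% against 52.9%), 10 in iP+A (62.5%, 62.2%), 7 in iG+A (43.8%, 65.2%) and 12 in iGPA (75.0%, 71.6%). Pou4f3 had one near 11 in iPou4f3 (68.8%, 72.2%), 9 in iP+A (56.2%, 58.4%), 13 in iG+P (81.2%, 76.4%) and 13 in iGPA (81.2%, 62.7%). Gfi1 was near 4 (25.0%, 23.1%). Here too some single genes leaned to 1 factor. Dach1, a co-repressor of the same network, had 53 Pou4f3 and 7 Atoh1 summits over the lists. Dlx3, a homeodomain factor of the placodal border, had 3 and 21. Both were named after their values were seen, and counts were not scaled by region length. Others were balanced, such as Six5 with 21 of each and Hmx2 with 4 of each. Dach2 had none. Hmx2 and Hmx3 are neighbours and share their summits. Six3 also shares summits with the 9 genes, because Six2 site 7 lies 24870 bp from a Six3 start. The 16 genes are thus not wholly separate from the 9.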

How the data were processed

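ChIP-seq peak lists from 17 ChIP and 12 input libraries of 6 lines were used, grouped by the sample titles. According to the methods of the study, the authors first cleaned the reads with Trimmomatic, then aligned them to mm9 with Bowtie 2, took out duplicate, low-quality and blacklisted reads, and called peaks with MACS 2 on merged replicates against merged inputs. The deposited values used were the summit position, the fold enrichment (a ratio to local background, computed by the authors) and the −log10 p of the peak caller, also as deposited by the authors. The summit lists hold the peaks the authors kept. 14.1% to 35.5% of called peaks were left out by a filter not given in the sources used here. A signal column of unstated definition was not used.

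Read totals were not used. As a measure of depth, the fragments and background of each peak were recovered as the whole number that gave both fold and −log10 p within 0.001, for 98.5% to 99.9% of the peaks tried. The commonest background was 5.87 to 8.30 fragments for Atoh1 and Pou4f3 and 3.55 for Gfi1, where weak sites are thus harder to keep.

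Genes, starts and exons came from GENCODE on NCBIM37, the same assembly as mm9, and all peaks lay within its chromosome lengths. Intervals (95%) are exact Clopper-Pearson for shares and exact Poisson for fragments, and cover counting error only. No test was made, since peaks were called on merged replicates and no list has a spread between them. Named sites were, for each gene, those of the highest Atoh1 and Pou4f3 fold, any with Gfi1, and any in 5 or more lists, and others are marked as chosen after their values were seen. Of the 17 named sites 7 have their sequence printed, chosen by number of lists and then fold, at most 2 a gene. In this order 2 were passed over because their window reached an untranslated region, and the sequence of 1 more is not reported here. The genes, lists of genes and patterns were chosen with earlier results of these data known. Alternatives were other flanks and windows, called in place of kept peaks, a minimum −log10 p of 10, lists cut to equal length, the nearest start and other gene sets. Python 3.11.15, pandas 2.3.3, SciPy 1.17.1 and pysam 0.24.0 were used, and the steps were tested on simulated data.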

Additional observations from a re-analysis of the deposited data

Results flagged for a closer look

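Called peaks that the authors did not keep as summits are signal outside the comparisons above, and 6 of them lay near these genes. In iPou4f3 there were 5, at folds of 2.36 in the untranslated exon of Eya1 (23 fragments, within Eya1 site 5), 2.73 in an intron of Eya3 (22 fragments), 2.58 and 2.26 in introns of Gata3 (24 and 22 fragments), and 2.71 in an intron of Six4 (22 fragments). In iG+A there was 1, at a fold of 2.94 (21 fragments) in a Gata3 intron, 194 bp upstream of an internal start, and it is the only Atoh1 peak called near Gata3. With all called peaks, Eya3 and Pax8 were left as the 2 genes with Pou4f3 and no Atoh1. Kept summits near the genes reached equally low values: in iG+A the summit at Eya2 site 3 had the same fold of 2.94 and 21 fragments as the Gata3 peak, and in iPou4f3 Gata3 site 1 was kept at 2.61 and Pax2 site 7 at 2.50. Whether the 6 would be kept under another filter was not tested.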

How the results depend on the processing

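No paired analysis was possible because peaks were called on merged replicates, and for the same reason no replicate could be left out. Values below follow the order Atoh1 in iAtoh1, iG+A, iP+A, iGPA, then Pou4f3 in iPou4f3, iG+P, iP+A, iGPA, then Gfi1, and give counts that differed from the reported ones by more than 1.5 times. With 10 kb flanks, summits near the genes were 6, 2, 8 and 11 for Atoh1 and 6, 18, 7 and 12 for Pou4f3, genes with a summit were 1 in iG+A and 5 in iPou4f3, and sites were 33, of which 3 had both factors in iGPA, 2 were in all Atoh1 lists and 3 in all Pou4f3 lists. With 100 kb, summits were 18 in iAtoh1, 16 in iG+A and 35 in iGPA for Atoh1, and 37, 55, 27 and 39 for Pou4f3, and sites were 107, of which 9 had both factors in iGPA and 16 were in all Pou4f3 lists. With a −log10 p of at least 10, summits were 2, 3, 4, 7, then 7, 7, 4, 11, then 0, genes were 1, 1 and 3 for Atoh1 in iAtoh1, iG+A and iP+A, 5, 3 and 5 for Pou4f3 in iG+P, iP+A and iGPA, and 0 for Gfi1, and sites were 21, of which 0 had both factors in iGPA, 2 were in all Atoh1 lists and 3 in all Pou4f3 lists. At equal list length, iG+P had 11 summits, 1 site had both factors in iGPA and 4 were in all Pou4f3 lists. With 100 or 1000 bp windows the 4 site counts, and by nearest start all 18 summit and gene counts, stayed within 1.5 times. The share of all genes with a summit, whose interval is narrow, was 46.6, 58.0, 55.4, 64.4, 65.7, 70.9, 53.4, 57.5 and 20.1% over all annotated genes, and 58.0, 69.0, 66.3, 73.4, 75.5, 78.5, 64.1, 65.9 and 24.8% with all called peaks. In 100 bp around the summit, 36.1% of the sites with Pou4f3 and no Atoh1 held an E-box, and the other 11 pattern shares stayed within their intervals. Depth limits weak sites, and no kept summit in a list does not show absence of binding.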
